A study of Mus musculus with 12 samples.

Results

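Hepatocyte identity is held by a small network of transcription factors, and the 8 genes Hnf4a, Foxa1, Foxa2, Foxa3, Cebpa, Cebpb, Onecut1 and Prox1 were taken by symbol from the 22456 genes of the deposited expression table. All 8 were found, and all 8 passed the filter on low values (a mean of at least 0.5 RPKM, reads per kilobase of gene, scaled by each library's mapped reads), which left 11507 genes to be tested. Of the skipped exon events, 25 of 84592 in fasted liver and 55 of 75694 in refed liver belonged to these genes.

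The livers came from BALB/cByJ mice of 2 genotypes, Lpin1-/- mice (the fatty liver dystrophy strain, which lacks the phosphatidate phosphatase lipin 1 in every tissue) and their Lpin1+/+ littermates. The study's methods give male mice aged 2 to 8 months. Each genotype was taken after a fast of 16 h or after the same fast and 5 h of refeeding, with 3 mice in each of the 4 groups, so feeding state and time of day cannot be told apart. Lpin1 itself lay at 22.0, 0.726 and 1.76 RPKM in fasted Lpin1+/+ liver, at 2.92, 0.784 and 2.76 in refed Lpin1+/+ liver, and at no more than 0.0597 in the 6 Lpin1-/- livers, below every Lpin1+/+ library. With 1 added to each RPKM, Lpin1 missed the threshold in both states (fasted log2 fold change -2.19 ± 0.72 SE, limma adjusted p = 0.0562), and with 0.1 added it passed in both (-4.42 fasted, adjusted p = 0.00797, and -4.13 refed, adjusted p = 0.0268).

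The factors of this network bind one another's promoters and the genes of the differentiated hepatocyte, such as those for plasma proteins, lipoproteins, bile acid synthesis and glucose output. HNF4A is a nuclear receptor, the FOXA proteins are forkhead factors that open closed chromatin, the C/EBP proteins are leucine zipper factors, ONECUT1 is a cut homeodomain factor, and PROX1 is a homeodomain factor that also acts as a corepressor. Several of them are known to switch target genes between the fasted and the fed liver.

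The hepatocyte markers Alb, Ttr, Apoa1, Ahsg, Serpinc1 and Cps1 lay at 274 RPKM or more in all 12 libraries, so the defining genes of the labelled tissue were present. Ratios of low RPKM values put the depth of the deepest library at 1.34 times that of the shallowest. Fasted Lpin1-/- replicate 1 stood apart: it held 430 RPKM of the bile duct gene Spp1, against 15.8 to 96.1 in the other 11 livers, and it was the lowest library of its group for all 8 factors. The calls of the 8 factors that rest on it are given with and without it. Refed Lpin1+/+ replicate 2 held 47.2 RPKM of the macrophage gene Marco, against 0.673 and 0.674 in the other 2 refed Lpin1+/+ livers, and 131 of the Kupffer cell gene Cd5l, against 8.20 and 5.96. Without it, as with it, none of the 8 factors passed for genotype in refed liver or for feeding in Lpin1+/+ liver with limma. Fasted Lpin1+/+ replicate 1 also differed from its group. It held 1340 RPKM of Cps1, against 274 and 300 in the other 2 fasted Lpin1+/+ livers, and 22.0 of Lpin1, against 0.726 and 1.76. It was the highest library of its group for 5 of the 8 factors. In bulk liver, fewer cells of a type and less RNA per cell cannot be told apart, and p-values measure the spread between these mice.

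Each promoter was read from RefSeq (GRCm38.p6) as the 250 bases before and 50 bases after a gene's start, and 12 promoters matched the 8 genes. On both strands they were searched for TGTTTAC (FOXA), TTGCNNAA (C/EBP), ATTGATT (ONECUT), CAAAGTCCA (HNF4) and the HNF4 direct repeat of AGGTCA spaced by 1 base. The 3 matches are given in capitals, written 5′ to 3′ on the strand of the gene, because the factors of this network are known to bind one another's promoters. The 80 bases before the start of Foxa3, the member with the largest genotype difference in fasted liver, held no match in its whole window and are shown beside them. The Hnf4a stretch stops where the first GENCODE exon begins. Hnf4a also has a window at chr2:163546905-163547204, which held no match. The exon at chr2:163547187-163547419, a flank of Hnf4a events in these livers, begins in that window without a match. Foxa2 also has windows at chr2:148045415-148045714 and chr2:148045899-148046198, without a match. Which of these promoters was in use was not tested.
Foxa1 (chr12:57546206-57546292, minus strand, FOXA match): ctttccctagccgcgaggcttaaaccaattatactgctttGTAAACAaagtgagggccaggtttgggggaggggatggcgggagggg
Foxa2 (chr2:148047136-148047219, minus strand, ONECUT match): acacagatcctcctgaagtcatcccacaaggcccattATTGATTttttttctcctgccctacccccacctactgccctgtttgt
Hnf4a (chr2:163506757-163506807, plus strand, ONECUT match): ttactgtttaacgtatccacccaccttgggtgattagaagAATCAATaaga
Foxa3 (chr7:19023540-19023619, minus strand, no match): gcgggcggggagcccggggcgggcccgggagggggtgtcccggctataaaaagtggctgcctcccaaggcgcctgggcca

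The FOXA letters stood in 3.65% of all 32851 promoters and the ONECUT letters in 2.86%. The C/EBP letters, in 10.8% of promoters, the short HNF4 letters, in 0.475%, and the HNF4 repeat, in 0.0396%, were in none of the 12 windows of these genes.

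Hnf4a (chr2:163506808-163572910, plus strand) encodes the nuclear receptor that many hepatocyte promoters depend on. It lay at 159, 46.9 and 84.3 RPKM in fasted Lpin1+/+ liver and at 52.3, 125 and 140 in fasted Lpin1-/- liver. Refed, it lay at 141, 83.5 and 130 in Lpin1+/+ and at 274, 132 and 122 in Lpin1-/-. The groups overlapped in all 4 comparisons, and replicates of 1 group differed by up to 3.38-fold. The genotype difference on the log2(RPKM + 1) scale was 0.18 ± 0.49 (SE) in fasted liver, with a 95% interval from -0.90 to 1.25, and 0.50 ± 0.49 in refed liver, from -0.57 to 1.58. The fasted interval thus spans both a fall and a rise.

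The 3 Foxa genes differed from Hnf4a in that all 3 were lower in every fasted Lpin1-/- liver than in any fasted Lpin1+/+ liver. Foxa3 (chr7:19013284-19023538, minus strand), the most abundant of them and known for its part in glucose homeostasis during fasting, lay at 41.9, 38.9 and 47.3 RPKM in fasted Lpin1+/+ liver and at 4.85, 7.12 and 13.3 in fasted Lpin1-/- liver. It fell by 2.31 ± 0.27 (SE) on the log2 scale, which is 4.96-fold (adjusted p = 4.6e-04). After refeeding it lay at 60.7, 51.5 and 62.5 RPKM in Lpin1+/+ and at 69.8, 86.1 and 77.4 in Lpin1-/-, so that the order of the genotypes was turned, although this difference of 0.41 did not pass the test (adjusted p = 0.402). From fasted to refed liver Foxa3 rose by 3.16 ± 0.27, or 8.92-fold, in Lpin1-/- mice (adjusted p = 2.1e-04), beside 0.44 ± 0.27 in Lpin1+/+ mice (adjusted p = 0.51).

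The difference between those 2 feeding responses of Foxa3, tested as an interaction, was 2.72 ± 0.38 (adjusted p = 0.00915). Foxa3 was the 1 member of 8 past the threshold in that test, which 1.28% of all genes passed. It passed in each of the 17 alternatives run, with adjusted p from 0.00127 to 0.0394, and stood at 2.43 without fasted Lpin1-/- replicate 1.

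Foxa1 (chr12:57540628-57546916, minus strand), a pioneer factor of liver development, was the lowest of the Foxa genes, with 5.34, 2.85 and 5.61 RPKM in fasted Lpin1+/+ liver and 1.09, 2.25 and 1.09 in fasted Lpin1-/- liver. It fell by 1.17 ± 0.28 on the log2 scale (adjusted p = 0.0151). In refed liver it lay at 9.56, 5.88 and 6.44 RPKM in Lpin1+/+ and at 5.44, 3.58 and 3.71 in Lpin1-/-. The refed groups did not overlap either, but the difference of -0.65 ± 0.28 missed the threshold (adjusted p = 0.195). Foxa1 rose with refeeding in Lpin1-/- liver by 1.10 ± 0.28 (adjusted p = 0.0189).

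Foxa2 (chr2:148042877-148046969, minus strand), which is known to act on lipid and bile acid genes, lay at 16.7, 6.48 and 9.92 RPKM in fasted Lpin1+/+ liver and at 3.33, 5.07 and 4.75 in fasted Lpin1-/- liver. The groups did not overlap, yet the difference of -1.09 ± 0.35 narrowly missed the threshold (adjusted p = 0.0508) and passed it in 7 of 18 alternatives. In refed liver it lay at 26.0, 14.5 and 13.0 RPKM in Lpin1+/+ and at 28.4, 15.3 and 19.1 in Lpin1-/-, overlapping groups. Its rise with refeeding in Lpin1-/- liver was 2.0 ± 0.35, or 3.99-fold (adjusted p = 0.00351), and passed in all 18 alternatives run.

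Within the family, Foxa3 held 73.8% ± 7.67 (SD, n = 3) of the summed RPKM of the 3 genes in fasted Lpin1+/+ liver and 57.1% ± 10.9 in fasted Lpin1-/- liver, with overlapping libraries, and 75.5% ± 7.50 in refed Lpin1-/- liver.

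**Figure D1:**
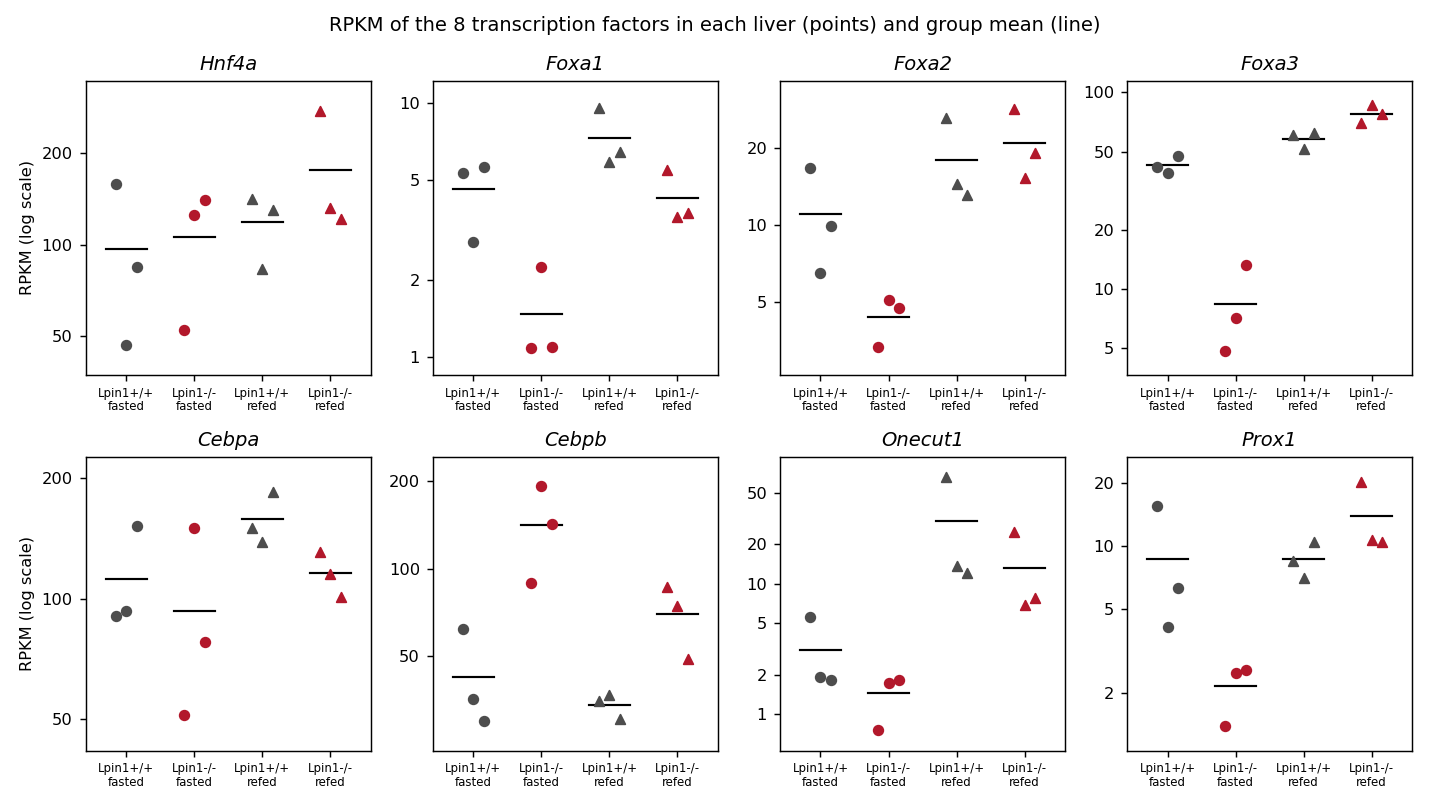
RPKM (log scale) of each of the 8 factors in the 4 groups of 3 mice, with circles for fasted, triangles for refed, grey for Lpin1+/+, red for Lpin1-/- and a line at each group mean. Foxa3 lies at 4.85 to 13.3 RPKM in fasted Lpin1-/- liver and at 38.9 or more elsewhere, while Cebpb is highest in fasted Lpin1-/- liver.

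The 2 C/EBP genes parted from each other. Cebpa (chr7:35119293-35121928, plus strand), which keeps hepatocytes in their differentiated, resting state, lay at 90.6, 93.3 and 152 RPKM in fasted Lpin1+/+ liver and at 51.3, 150.3 and 77.9 in fasted Lpin1-/- liver, with overlap. It lay at 150.3, 139 and 185 RPKM in refed Lpin1+/+ liver and at 131, 116 and 101 in refed Lpin1-/- liver. There the groups did not overlap, but the difference of -0.44 ± 0.34 did not pass the test (adjusted p = 0.484).

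Cebpb (chr2:167688915-167690418, plus strand), which is induced in the acute phase response and in regenerating liver, went the other way. It lay at 62.2, 35.5 and 29.9 RPKM in fasted Lpin1+/+ liver and at 89.3, 192 and 142 in fasted Lpin1-/- liver, where every value was above the Lpin1+/+ range. It rose by 1.71 ± 0.33 on the log2 scale, or 3.27-fold (adjusted p = 0.00529), passed in all 18 alternatives run, and stood at 2.0 without fasted Lpin1-/- replicate 1. In refed liver it lay at 35.2, 36.7 and 30.4 RPKM in Lpin1+/+ and at 86.6, 74.5 and 48.9 in Lpin1-/-, again without overlap, with a difference of 0.98 ± 0.33 (adjusted p = 0.10). With refeeding its change was -0.97 ± 0.33 in Lpin1-/- liver (adjusted p = 0.0561), and after rescaling each library by its median ratio both values passed (adjusted p = 0.0476 and 0.0163).

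The ratio of Cebpb to Cebpa RPKM was 0.196 to 0.686 in fasted Lpin1+/+ liver and 1.28 to 1.83 in fasted Lpin1-/- liver. After refeeding the ratio ran from 0.165 to 0.265 in Lpin1+/+ mice and from 0.482 to 0.661 in Lpin1-/- mice. Cebpb thus passed Cebpa in the fasted Lpin1-/- libraries and in no other library.

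Onecut1 (chr9:74861921-74891781, plus strand), which acts in bile duct and hepatocyte development and on bile acid and lipid genes, stood out by its values after refeeding. It lay at 5.58, 1.92 and 1.82 RPKM in fasted Lpin1+/+ liver and at 65.6, 13.6 and 12.1 in refed Lpin1+/+ liver. In Lpin1-/- mice it lay at 0.751, 1.72 and 1.83 RPKM fasted and at 25.0, 6.83 and 7.80 refed. All refed livers were thus above all fasted livers in both genotypes. The rise was 2.35 ± 0.63 on the log2 scale in Lpin1-/- liver, or 5.10-fold in RPKM + 1 (adjusted p = 0.0234), and 2.95 with 0.1 rather than 1 added. The difference was 2.62 ± 0.63 in Lpin1+/+ liver (adjusted p = 0.0681). The interaction was -0.27 ± 0.89, with a 95% interval from -2.23 to 1.68. Onecut1 had the widest spread within groups of the 8 genes (SD of 0.903 on the log2 scale, against a median of 0.324 over all genes tested), and it shares its last exon with the non-coding gene Gm20649 on the same strand.

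Prox1 (chr1:190118035-190170714, minus strand), needed for hepatoblast outgrowth and known to restrain HNF4A targets, lay at 15.6, 4.10 and 6.35 RPKM in fasted Lpin1+/+ liver and at 1.40, 2.50 and 2.58 in fasted Lpin1-/- liver. The groups did not overlap, and Prox1 fell by 1.46 ± 0.40 on the log2 scale (adjusted p = 0.0256). In refed liver it lay at 8.502, 7.08 and 10.5 RPKM in Lpin1+/+ and at 20.3, 10.8 and 10.5 in Lpin1-/-. From fasted to refed Lpin1-/- liver it rose by 2.20 ± 0.40, or 4.58-fold (adjusted p = 0.00408), beside 0.17 ± 0.40 in Lpin1+/+ liver. Its interaction of 2.03 ± 0.56 missed the threshold (adjusted p = 0.10).

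Counted over the members, 4 of 8 passed the test for genotype in fasted liver (18.8% of all genes tested did), 3 of them lower in Lpin1-/- (13.2% of all genes) and Cebpb higher. For 5 of 8 the Lpin1-/- libraries lay wholly above or below the Lpin1+/+ libraries (32.9% of all genes). The median difference of the 8 was -0.88, beside -0.14 over all genes. The count was 2 without fasted Lpin1-/- replicate 1 and 2 without fasted Lpin1+/+ replicate 3, where Foxa3 and Cebpb stayed past the threshold and Foxa1 and Prox1 did not. Without fasted Lpin1-/- replicate 1 the difference of Foxa1 was -1.06 (adjusted p = 0.0521) and that of Prox1 -1.27 (adjusted p = 0.0872).

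In refed liver none of the 8 passed for genotype with limma (6.67% of all genes did, and 2 members had an unadjusted p under 0.05), and 5 of 8 did not overlap (33.9% of all genes). With refeeding, 5 of 8 rose in Lpin1-/- liver (20.7% of all genes passed, and 17.8% in that direction), 6 of 8 did not overlap (46.8%), and the median difference was 1.55, beside 0.25 over all genes. Without refed Lpin1-/- replicate 1 the count was 3. Without fasted Lpin1-/- replicate 1, Foxa3 (2.86, adjusted p = 5.6e-04), Foxa2 (1.85, adjusted p = 0.0156) and Prox1 (2.01, adjusted p = 0.0182) still rose. Foxa1 (0.99, adjusted p = 0.0701) and Onecut1 (2.13, adjusted p = 0.086) then missed the threshold, and Cebpb passed it as a fall (-1.27, adjusted p = 0.0319). In Lpin1+/+ liver none passed for feeding with limma (1.72% of all genes did, and 1 member had an unadjusted p under 0.05), and 3 of 8 did not overlap (18.1%). The fasted Lpin1-/- livers enter both the fasted genotype and the Lpin1-/- feeding comparison, so a low value there lowers the first and raises the second.

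**Figure D2:**
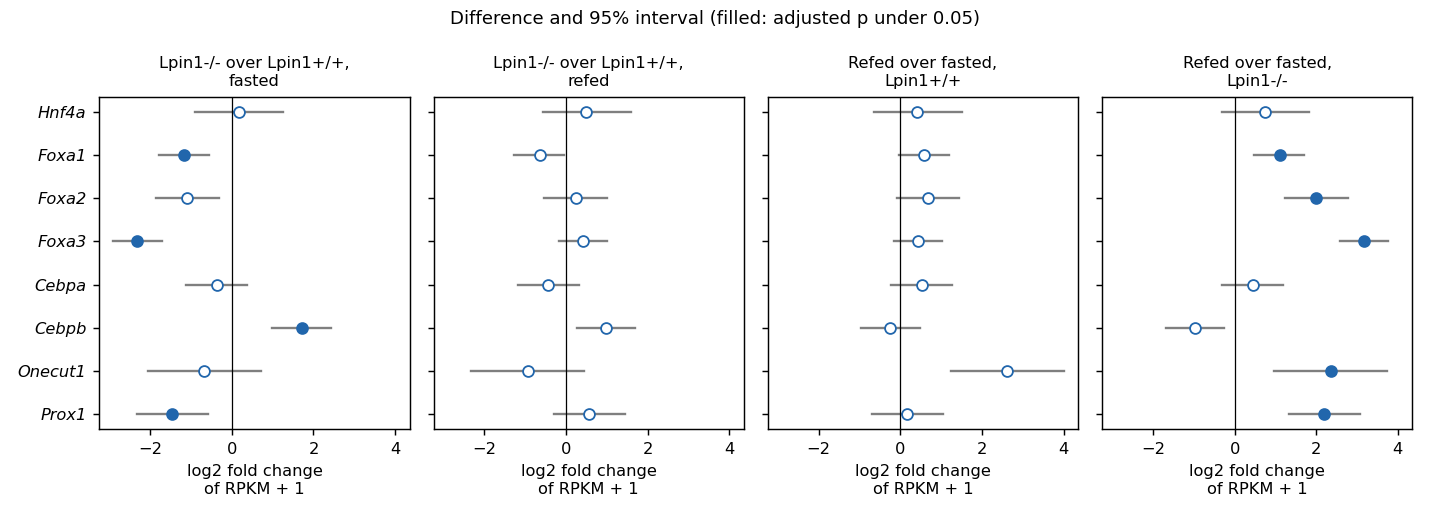
Log2 fold change of RPKM + 1 with its 95% interval for the 8 factors in the 4 comparisons, filled where the adjusted p was under 0.05. Filled points stand only in the fasted genotype panel (4) and in the Lpin1-/- feeding panel (5).

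By level per length, Cebpa (112 RPKM), Hnf4a (96.7), Foxa3 (42.7) and Cebpb (42.5) led in fasted Lpin1+/+ liver, and Foxa2 (11.03), Prox1 (8.68), Foxa1 (4.60) and Onecut1 (3.11) followed. Neighbours in this order overlapped in their libraries, except at the step from Cebpb to Foxa2. In fasted Lpin1-/- liver Cebpb led (141 RPKM), and Foxa3 (8.42) stood below Cebpa (93.2) without overlap. In refed Lpin1+/+ liver Onecut1 lay above Foxa2 in replicate 1 (65.6 against 26.0 RPKM) and below it in replicates 2 and 3 (13.6 against 14.5 and 12.1 against 13.0).

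Among the other 11506 genes, those nearest to a member in their log2 values over the 12 libraries, each centred on its mean, were named by the root mean square distance. For Hnf4a they were Tada2b (0.15) and Rab3gap1 (0.17), for Foxa1 Impa1 and Adgra3 (both 0.20), and for Foxa2 Srsf1 (0.19) and Gopc (0.21). For Foxa3 they were S1pr1 (0.29) and Depdc7 (0.32), for Cebpa Dgat2 and Mbd3 (both 0.24), and for Cebpb Asb1 (0.29) and Ankrd33b (0.30). Prox1 was nearest to Adgrl2 (0.22) and Top1 (0.24). Onecut1 had no close neighbour, with Tgm1 at 0.81 and Ddx17 at 0.82. Within the 8 factors, Foxa2 and Prox1 were each other's nearest member (0.35).

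The exon events gave a second readout of the same genes. Hnf4a had 15 events in fasted and 13 in refed liver, Onecut1 7 and 32, Prox1 2 and 8, Foxa2 1 and 1, Foxa3 1 in refed liver, and Foxa1, Cebpa and Cebpb none. Of these, 17 in fasted and 39 in refed liver had at least 10 reads in every library and were tested. Overlapping events share reads, so they are not separate measurements. For genotype, 4 of 17 passed in fasted liver (11.3% of all events tested did) and none of 39 in refed liver with limma (0.970% did, and 8 member events had an unadjusted p under 0.05).

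Of these 4 events, 3 lie at 1 place in Hnf4a. The 88-base coding exon at chr2:163562519-163562606, whose length is not a multiple of 3, was skipped by 0 of 3752, 0 of 1066 and 0 of 1846 reads in fasted Lpin1+/+ liver. A count of 0 allows a share of up to 0.080%, 0.281% and 0.163%. In fasted Lpin1-/- liver it was skipped by 18 of 1045 (1.72%, exact 95% binomial interval 1.02% to 2.71%), 26 of 2768 (0.939%, 0.614% to 1.37%) and 4 of 3226 reads (0.124%, 0.0338% to 0.317%). Skipping reads were thus found in each Lpin1-/- library, and the summed share was 15.1-fold the limit of 3 reads over the Lpin1+/+ group. That ratio pools mice, leaves out the uncertainty of the Lpin1-/- share and rests mainly on the first and second libraries. The third, at 0.124%, lay below the limits of 0.281% and 0.163% in Lpin1+/+ liver. Its sequence in the GENCODE M21 transcripts (GRCm38) is shown because it is the part of the message these reads leave out.
Hnf4a exon (chr2:163562519-163562606, plus strand): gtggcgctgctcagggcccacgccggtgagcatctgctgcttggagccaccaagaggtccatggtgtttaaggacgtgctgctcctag

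Just before it, a 47-base stretch that is no annotated exon (chr2:163562364-163562410) was included by 0 of 1586, 0 of 478 and 0 of 773 reads in fasted Lpin1+/+ liver and by 14 of 454, 19 of 1247 and 6 of 1365 in fasted Lpin1-/- liver. With 0.5 added to each count, the log2 ratio of inclusion to skipping rose by 4.51 ± 0.91 for this stretch (adjusted p = 0.00746) and fell by 4.60 ± 1.02 for the 88-base exon (adjusted p = 0.012). These sizes depend on the 0.5 added, since the Lpin1+/+ counts were 0. The third event, which joins both (chr2:163562364-163562606), counts the same skipping reads (-4.54 ± 0.98, adjusted p = 0.0106). The rarer form reached 3.08% of the reads of an event at most. Per length, which weighs a skipping read more, the lowest inclusion was 96.1% for the 88-base exon and 88.9% for the joined event, both in the fasted Lpin1-/- library at the first list position.

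Without the fasted Lpin1-/- library at the first or the second position of the deposited list, none of the 3 Hnf4a events passed (adjusted p from 0.0541 to 0.0749), and none did with precision weights (0.107 to 0.147).

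In refed liver the 88-base exon was skipped by 0 of 8504 reads over the 3 Lpin1+/+ libraries and by 1 of 14284 over the 3 Lpin1-/- libraries. Of the 7 member events found in both states and tested, 2 passed for feeding in Lpin1-/- liver (7.80% of all events tested did). The 88-base exon of Hnf4a changed by 5.25 ± 0.99 toward inclusion (adjusted p = 0.00592) and passed in all 15 alternatives run. None of the 7 passed for feeding in Lpin1+/+ liver with limma, where 0 of 28444 events did (1459 had an unadjusted p under 0.05, no member among them). The interaction for this exon was 4.73 (adjusted p = 0.145).

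**Figure D3:**
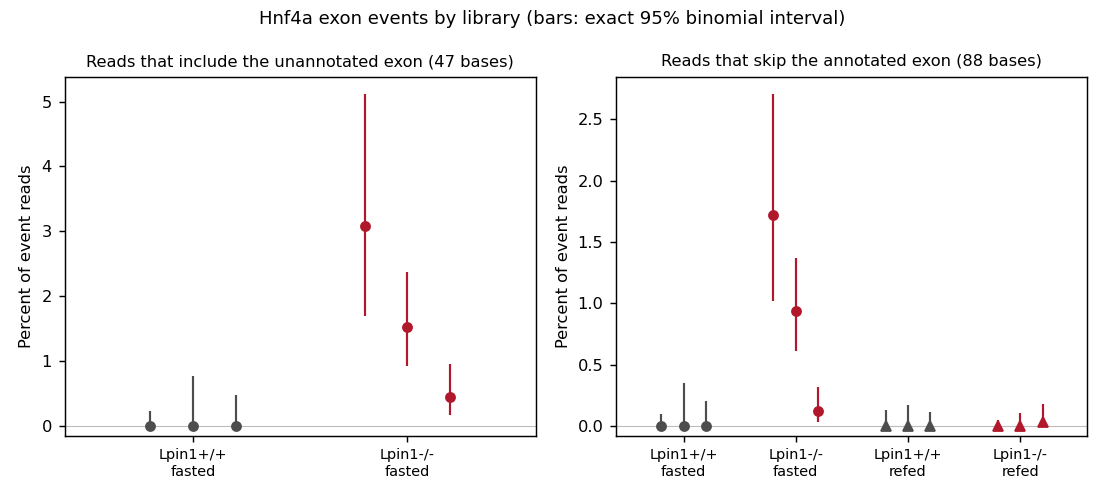
Percent of event reads in each library, with its exact 95% binomial interval, that include the 47-base unannotated stretch of Hnf4a in fasted liver (left) or skip its 88-base coding exon in all 4 groups (right). The 3 fasted Lpin1-/- libraries lie at 0.44% to 3.08% and 0.124% to 1.72%, and the 3 fasted Lpin1+/+ libraries at 0.

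The fourth event was the 70-base exon of Foxa2 (chr2:148045827-148045896). It was skipped by 0 of 228, 0 of 87 and 0 of 121 reads in fasted Lpin1+/+ liver and by 2 of 15, 5 of 57 and 0 of 47 in fasted Lpin1-/- liver. The call (-3.98 ± 1.00, adjusted p = 0.0224) therefore rests on 7 reads in 2 libraries, and it passed in 3 of 8 alternatives and in none that left out a Lpin1+/+ library. Of the 4 events of both genes, 1 passed without the fasted Lpin1+/+ library at the first list position and 2 without that at the third. Its change with refeeding in Lpin1-/- liver was 4.27 ± 1.18 (adjusted p = 0.0378), and the call was lost without the fasted Lpin1-/- library at the first or second list position, the refed Lpin1-/- library at position 1 or 3, or the refed Lpin1+/+ library at position 2 (0.0501 to 0.159).

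The events of Onecut1 lay between its 2 coding exons, and none of the exons included or skipped in them is annotated. In refed liver a 75-base exon (chr9:74879004-74879078) was included between the 2 coding exons at 24.7%, 18.5% and 47.3% per length in Lpin1+/+ liver. In Lpin1-/- liver it was included there at 14.0%, 17.5% and 11.3%. The groups did not overlap, but the difference of -1.30 ± 0.62 did not pass the test (adjusted p = 0.388). After the annotated exon at chr9:74866484-74866639 the 75-base exon was included at 61.0%, 60.3% and 56.4% and at 44.1%, 63.3% and 41.2%, with overlap (-0.57 ± 0.54, limma adjusted p = 0.69). After the exon at chr9:74866484-74866713 the groups did not overlap (-1.34 ± 0.57, limma adjusted p = 0.325). A 210-base exon (chr9:74874851-74875060) was included after the first annotated exon at 5.48%, 3.84% and 11% per length in Lpin1+/+ liver and at 1.31%, 2.78% and 2.81% in Lpin1-/- liver, without overlap (-1.53 ± 0.64, adjusted p = 0.317). After another annotated exon of Onecut1 (chr9:74866484-74866639) it was included at 26.1%, 19.7% and 16.2% and at 8.40%, 22.5% and 13.4%, with overlap (-0.66 ± 0.59, adjusted p = 0.666). Of its 4 events tested, all were below 0 and none passed. The one nearest to the threshold (-3.53 ± 0.74, adjusted p = 0.0594, and 0.0296 with 1 rather than 0.5 added), in which it follows the exon at chr9:74864616-74864740, is named after its values were seen and rests on 9 skipping reads in Lpin1+/+ and 16 in Lpin1-/- liver. In fasted liver no Onecut1 event had enough reads to be tested.

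Prox1 had 1 event tested in fasted and 6 in refed liver, and the 46-base stretch seen in both (chr1:190170028-190170073, no annotated exon) was included at 0% to 14.9% per length in fasted and 0% to 10.2% in refed liver, with overlapping groups. An overlapping 111-base stretch (chr1:190170028-190170138, no annotated exon) was included at 13.31%, 10.3% and 9.995% per length in refed Lpin1+/+ liver. In refed Lpin1-/- liver it was included at 4.945%, 3.873% and 9.596%, without overlap. Its difference of -1.03 ± 0.57 did not pass with limma (adjusted p = 0.458). The unannotated 55-base exon of Foxa3 (chr7:19021756-19021810) was included in at most 0.848% per length of any refed library.

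The other factors of the liver network were tested beside the members. Of 16 other liver-enriched transcription factors, 9 fell in fasted Lpin1-/- liver (13.2% of all genes did) and none rose, with a median difference of -0.91, beside -0.88 for the 8 members and -0.14 over all genes. The largest falls were those of Atf5, a stress-responsive leucine zipper factor (-2.46 ± 0.32, adjusted p = 7.7e-04), Tbx3, a factor of hepatoblast development (-1.66 ± 0.34, adjusted p = 0.00761), and Nr1h4, the bile acid receptor FXR (-1.45 ± 0.19, adjusted p = 8.4e-04). Nr1h4 lay at 44.4 to 57.9 RPKM in fasted Lpin1+/+ liver and at 16.5 to 20.8 in fasted Lpin1-/- liver.

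With refeeding, 10 of the 16 rose in Lpin1-/- liver (17.8% of all genes did) and none fell (median 0.97, beside 0.25 over all genes), led by Atf5 (1.92 ± 0.32, adjusted p = 0.00276), Nr1h4 (1.91 ± 0.19, adjusted p = 3.5e-04) and Tbx3 (1.77 ± 0.34, adjusted p = 0.00565). For genotype in refed liver and for feeding in Lpin1+/+ liver none of the 16 passed with limma. Of the 9 and the 10, 5 and 6 were the counts without fasted Lpin1-/- replicate 1. The first count was 4 without fasted Lpin1+/+ replicate 3, 5 with no filter on low values and 4 with only the libraries compared, and the second was 6 without refed Lpin1-/- replicate 2.

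**Figure D4:**
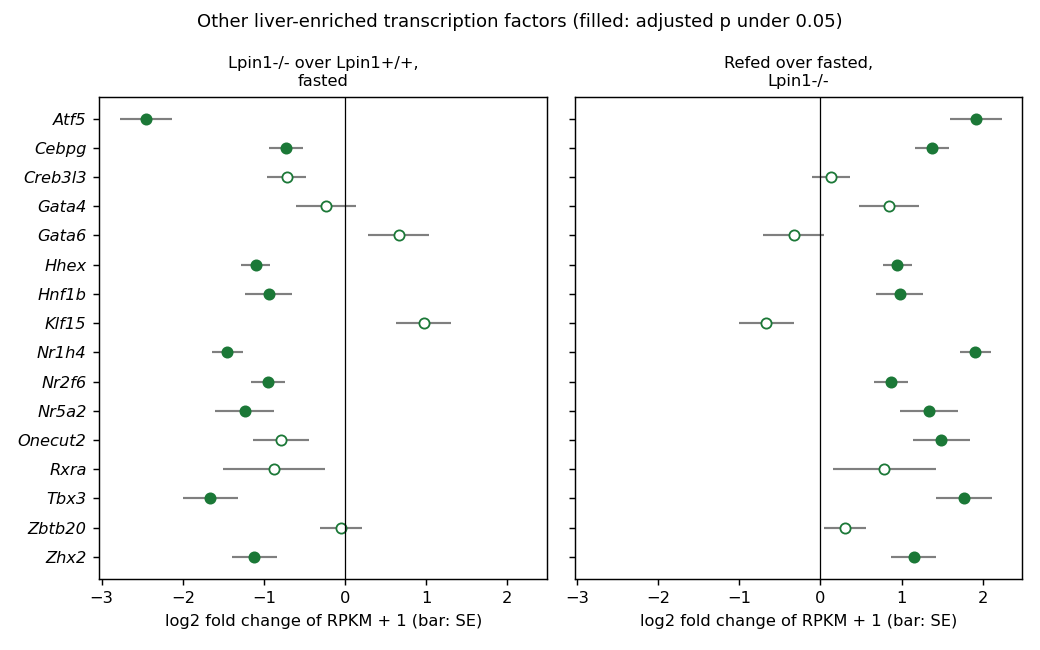
Log2 fold change of RPKM + 1 (bar, SE) of the 16 other liver-enriched transcription factors for genotype in fasted liver (left) and feeding in Lpin1-/- liver (right), filled where the adjusted p was under 0.05. The 9 filled points on the left are below 0 and the 10 on the right above 0, and the fasted Lpin1-/- libraries enter both panels.

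Among 6 partners and inhibitors of the network, Nr2f2 (COUP-TFII, which competes with HNF4A for its sites) fell by 1.56 ± 0.30 in fasted Lpin1-/- liver (adjusted p = 0.00529). Nr0b2 (SHP, an inhibitor of nuclear receptors) fell by 1.16 ± 0.30 in refed Lpin1-/- liver (adjusted p = 0.0453), and Ddit3 (CHOP, an inhibitory C/EBP relative) rose by 1.70 ± 0.33 with refeeding in Lpin1+/+ liver (adjusted p = 0.0299). The last 2 passed in only 6 of 18 alternatives each.

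Of 32 genes of hepatocyte function tested, many of them known targets of these factors, 7 fell and none rose in fasted Lpin1-/- liver. This was 21.9% of them, beside 13.2% of all genes called lower and 18.8% called in either direction. The median of -0.14 was that of all genes. The largest falls were those of Cyp7a1, the rate-limiting enzyme of bile acid synthesis (-3.03 ± 0.74, adjusted p = 0.0163), Slc2a2, the glucose transporter GLUT2 (-2.27 ± 0.34, adjusted p = 0.00158), and Pklr, the liver pyruvate kinase (-1.95 ± 0.42, adjusted p = 0.00905). Slc2a2 lay at 57.8 to 87.5 RPKM in fasted Lpin1+/+ liver and at 13.2 to 15.2 in fasted Lpin1-/- liver. The count of 7 was 3 without fasted Lpin1+/+ replicate 3, 5 to 8 without any other 1 of the libraries, 3 with no filter on low values and 2 with only the libraries compared. Slc2a2 and Pklr passed in all 18 alternatives run.

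In refed liver 2 of the 32 passed for genotype (6.25%, beside 6.67% of all genes), both higher in Lpin1-/-: Ass1 of the urea cycle (2.14 ± 0.34, adjusted p = 0.00633) and Tdo2 of tryptophan breakdown (1.48 ± 0.25, adjusted p = 0.00813). The count was 5 without fasted Lpin1-/- replicate 1, and 4 with a filter of 5 RPKM or with only the libraries compared. With refeeding in Lpin1-/- liver 2 of the 32 rose (17.8% of all genes did). Pklr rose by 2.63 ± 0.42 (adjusted p = 0.00214) and Mttp, the lipoprotein assembly protein, by 0.96 ± 0.27 (adjusted p = 0.0279, lost without fasted Lpin1-/- replicate 1 or without refed Lpin1-/- replicate 2 or 3), and 5 passed without fasted Lpin1-/- replicate 3. Of 11 genes of fetal liver 3 were tested, and none passed for any comparison.

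Markers of other liver cells varied between libraries. In fasted liver none of 5 cholangiocyte, 9 Kupffer cell, 7 stellate cell and 5 leukocyte markers tested passed for genotype, and 1 of 10 endothelial markers did (Lyve1, 1.77 ± 0.46, adjusted p = 0.0208). Yet all 5 cholangiocyte markers (median 1.01) and all 5 leukocyte markers (median 0.22) were above 0, beside a median of -0.14 over all genes. So were 8 of 9 Kupffer cell markers (median 0.55) and 7 of 10 endothelial markers (median 0.36). Summed cholangiocyte markers were 32.1 to 45.8 RPKM in fasted Lpin1+/+ liver and 24.9 to 452 in fasted Lpin1-/- liver, the highest being replicate 1. Summed stellate cell markers were 68.8 to 161 and 203 to 292 RPKM, without overlap. Most of each sum was Dcn, at 61.8 to 144 and 179 to 264 RPKM. Of the 7 tested, 6 were above 0 and 1 below. Summed Kupffer cell markers were 157 to 325 and 305 to 819. With refeeding in Lpin1-/- liver, where 5 of the 8 factors rose, all 9 Kupffer cell markers were below 0 (median -1.51, beside 0.25 over all genes), and their sum was 94.6 to 228.5 RPKM in refed liver, below all 3 fasted livers. Of these markers 1 passed (Clec4f, -1.28 ± 0.34, adjusted p = 0.0235), and 0 to 6 did under the alternatives, 0 of them without fasted Lpin1-/- replicate 1. All 5 cholangiocyte markers (median -0.79) and all 5 leukocyte markers (median -0.65) were below 0 as well, and none of them passed. Of 10 endothelial markers 3 were above 0 and 7 below (median -0.07). The 1 that passed was Gpr182, which rose by 1.41 ± 0.32 (adjusted p = 0.0114). The part of these shifts in the values of the 8 factors was not tested. Foxa3 and Cebpb kept their calls in fasted liver without replicate 1 (adjusted p = 0.00104 and 0.00428).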

How the data were processed

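Liver RNA of 12 mice (4 groups of 3) was sequenced from stranded libraries as 69 bp paired ends, with about 150 M reads per sample per the labels. The authors aligned reads with HISAT2 2.0.5 to GRCm38, counted them with HTSeq 0.6.0 and deposited RPKM. The setting of strand in counting is not given in the sources used here, so reads of Hnf4a, Cebpa, Cebpb and Prox1 cannot be told apart from those of genes on the opposite strand that overlap them. The deposited event tables (rMATS) hold inclusion and skipping read counts per library in lists of 3, with the authors' own p-values, FDR and inclusion levels, which were not used. List groups follow the order of the comparison named for each table.

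Genes whose RPKM averaged 0.5 or more were fitted as log2(RPKM + 1) by limma 3.58.1 (R 4.3.3, trend), in 1 fit of 4 groups, with Benjamini-Hochberg adjustment over all genes and a threshold of 0.05. A fold change on this scale understates the change of low genes. For events with 10 or more reads in every library, 0.5 was added to each count and inclusion over skipping, each divided by its length, was fitted by limma as a log2 value. Intervals and limits for counts of 0 (3 reads) cover counting error only. With 3 against 3 mice an exact permutation test cannot go below p = 0.10, so none was used. The fits were tested on simulated data.

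The members, the gene lists and the tests were chosen with earlier results of these data known. Named were all members, Lpin1, up to 3 called rises and 3 falls per list and comparison, and the 2 genes nearest to each member. Markers cited for single libraries or sums were named as well. The events named were called or had a mean of at least 5 reads of the rarer form. The exception was the Onecut1 event nearest to the threshold, with a mean of 4.167. Of the events that were not called, examples were chosen after their values were seen. The symbols Cebpd, Tf and H19 of the lists were not analysed here, and some further genes are not reported here. GENCODE M21 (GRCm38) gave the positions of genes, and RefSeq GRCm38.p6 the promoters. The alternatives tried for genes were adding 0.1 instead of 1, dropping the filter or raising it to 5 RPKM, median ratio scaling, a replicate block, a fit of the 2 groups alone, and leaving out 1 library at a time. For events they were 20 reads, adding 1, precision weights and leaving out 1 library at a time.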

Additional observations from a re-analysis of the deposited data

Results flagged for a closer look

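The feeding response of Foxa3 differed between the genotypes by the test of the interaction: the log2 change from fasted to refed liver was 2.72 larger in Lpin1-/- than in Lpin1+/+ mice (SE 0.38, limma adjusted p = 0.00915). The 3 fasted Lpin1-/- livers lay below all other libraries. Among the other liver-enriched factors, Nr1h4 was flagged by the same test, with a difference of 2.04 (SE 0.27, adjusted p = 0.00794, past the threshold in all 17 alternatives). Groups of 3 were not tested for outlying samples, and the libraries described above as apart were picked by their values.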

How the results depend on the processing

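Of 707 values of single members under the alternatives, 663 kept direction and side of the threshold, 16 lost the call, 11 gained it and 17 turned sign, none of them a called value. The 707 include the comparisons without a call. Calls were lost for Foxa1 (14 of 17 alternatives kept for fasted genotype, 14 of 17 for feeding in Lpin1-/-), for Prox1 in fasted genotype (12 of 18 kept) and for Onecut1 with feeding in Lpin1-/- (14 of 18 kept). For genotype in fasted liver the count of members called was 2 with only the libraries compared and 2 to 5 with 1 library left out. For genotype in refed liver it was 1 (Cebpb) after rescaling by the median ratio and 0 otherwise. For feeding in Lpin1-/- liver it was 3 to 6 with 1 library left out. For feeding in Lpin1+/+ liver it was 0 and for the interaction 1 under all. Rescaling moved the median of all genes from 0.185 to about 0 for feeding in Lpin1+/+ and from 0.25 to 0.059 in Lpin1-/-. Member events called for genotype in fasted liver were 1 with precision weights and 0 to 4 with 1 library left out, in refed liver 1 with 1 added, and for feeding in Lpin1-/- liver 1 with at least 20 reads and 1 to 2 with 1 library left out. The cause was not tested, except that leaving out a library leaves fewer samples.

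Sign turns with 1 library left out were seen for Hnf4a (fasted genotype -0.25 to 0.62, feeding in Lpin1+/+ -0.00 to 0.87, interaction -0.12 to 0.75), for the interaction of Cebpa (-0.43 to 0.34) and Onecut1 (-0.82 to 0.48), and for feeding in Lpin1+/+ of Cebpb (-0.46 to 0.06) and Prox1 (-0.20 to 0.65, and -0.03 after rescaling). Lpin1 turned for feeding in Lpin1+/+ (-1.42 to 0.45) and the interaction (-0.50 to 1.37), in both without fasted Lpin1+/+ replicate 1.

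The replicate numbers do not pair the mice: over 18 same-numbered pairs r ran from -0.474 to 0.743, with 8 above 0.1. With the replicate number as a block, 5, 0, 0, 5 and 1 members passed for genotype fasted, genotype refed, feeding in Lpin1+/+, feeding in Lpin1-/- and interaction. No paired analysis was run for events, and the list positions carry no replicate numbers. At this depth the Foxa2 event rests on 7 skipping reads, and no Onecut1 event of fasted liver had enough reads to be tested.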
